A study of Mus musculus with 6 samples.

Results

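The loci described here hold 10 genes that drive or halt the cell cycle. They are the D-type cyclin genes *Ccnd1*, *Ccnd2* and *Ccnd3*, the cyclin genes *Ccne1*, *Ccna2* and *Ccnb1*, the cyclin-dependent kinase gene *Cdk1*, the inhibitor genes *Cdkn1a* (p21) and *Cdkn2c* (p18), and *Rb1*, which codes for the retinoblastoma protein. Each gene was represented by the 500 kb bin that holds its transcription start site, so the members are 10 bins of the 4727 autosomal bins that had a value in every condition. Of the 10 genes, 7 are cyclins or Cdk1 and 3 are inhibitors or *Rb1*. The genes were listed by function, and no measured value entered the rule, but earlier results of these data were known when they were chosen.

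Hi-C, which records which stretches of the genome lie close together in the nucleus, was carried out on C2C12 cells, an established line of mouse myoblasts grown from thigh muscle of C3H mice. Proliferating myoblasts were harvested sub-confluent after 72 h of growth at day 0. Myotubes were harvested after 3 days in medium with 2% horse serum, and those cultures still held some myoblasts. AraC-treated myotubes stayed in that medium to day 7, with 10 µg/ml cytosine arabinoside (AraC) added from day 3. AraC is a cytidine analogue that kills cells in the act of copying their DNA. The study reports an apparent removal of myoblasts from the treated cultures, seen as patches free of cells, and a further fall in nuclei per field. By its count, part of the nuclei at day 7 still lay outside myosin-positive cells. Each condition had 2 biological replicates, 6 libraries in all. The deposited matrices, 1 per condition, pool both replicates, so no spread between replicates, test or p-value can be given for any value below. The study does report correlations between whole replicate matrices at 500 kb. Myoblast replicates correlated less with each other than the replicates of both kinds of myotubes did. Their correlation was little above that between myoblast and myotube replicates. The files do not give the depth behind a correlation coefficient. AraC-treated myotubes differ from myotubes in both the drug and the day of harvest, and these cannot be told apart. The matrices hold no transcript level, and the study's RNA-seq was not analysed here, so the cell type and the expression of the 10 genes were not checked.

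Progress through the cell cycle is driven by cyclins, which bind and switch on cyclin-dependent kinases. The D-type cyclins act early in G1, when their kinases start to phosphorylate the retinoblastoma protein and so release the E2F factors that switch on genes for DNA synthesis. Cyclin E acts at the entry to S phase, cyclin A through S phase and G2, and cyclin B1 with Cdk1 at the entry to mitosis. The inhibitor p21 blocks several of these kinases, and p18 blocks the kinases of the D-type cyclins. Myoblasts leave the cell cycle for good before they fuse into myotubes, and p21 and the retinoblastoma protein are known for their part in that exit. In the nucleus, chromatin falls into an A compartment, which is gene-rich and mostly active, and a B compartment, which is gene-poor and mostly silent, and bins of 1 compartment preferentially contact each other.

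Compartments were read from the first principal component (PC1) of the correlation coefficients within each chromosome, with bins above 0 assigned to A and bins below 0 to B. Scaled PC1 is PC1 divided by its standard deviation (SD) over the bins of the same chromosome and condition, so that a value of 1 lies 1 SD of the chromosome above 0. Over the autosomal bins the SD of unscaled PC1 was 0.859 in myoblasts, 1.61 in myotubes and 1.36 after AraC treatment, so that without scaling most A bins would appear to move up and most B bins down after differentiation. PC1 carried 26.3 to 50.8% of the variance in myoblasts on the 8 chromosomes with a member, 56.1 to 77.3% in myotubes and 44.5 to 69.1% in AraC-treated myotubes.

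Most of the cell cycle loci lay in the A compartment before and after differentiation. In myoblasts 7 of the 10 loci were in A, against 38.3% of all autosomal bins. In myotubes 8 of the 10 were in A, against 36.5%, and in AraC-treated myotubes 8 of 10 against 35.5%. These shares are not matched for gene density. Each member bin was chosen for a gene and held 4 to 14 protein-coding start sites (60.5 to 93.2 percentile), while autosomal bins include some without any. The sign of PC1 was also set by the density of start sites. The part of gene density in the difference was not tested. The loci in A in every condition were *Ccnd1*, *Ccnd3*, *Ccna2*, *Ccnb1*, *Cdk1*, *Cdkn1a* and *Rb1*. Those in B in every condition were *Ccnd2* and *Ccne1*. The remaining locus, *Cdkn2c*, was in B in myoblasts and in A in both kinds of myotubes. Cyclin and Cdk1 loci were thus in A at 5 of 7 in each condition, and inhibitor and *Rb1* loci at 2 of 3 in myoblasts and 3 of 3 in myotubes with and without AraC.

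**Figure D1:**
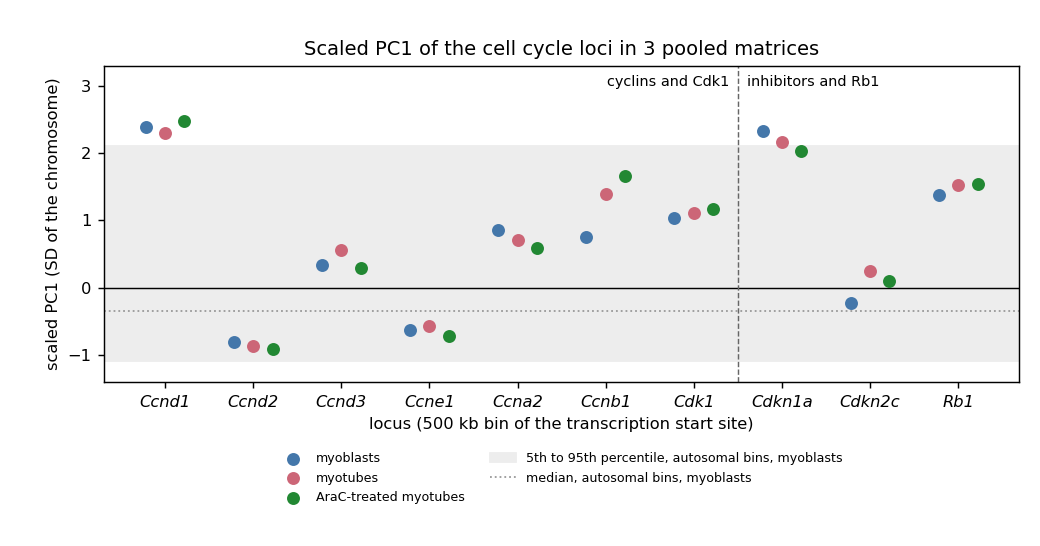
Scaled PC1 (vertical axis, in SD of the chromosome) of the 10 loci, with 1 point per pooled matrix of myoblasts (blue), myotubes (red) and AraC-treated myotubes (green). Points above the line at 0 are in compartment A, the grey band spans the 5th to 95th percentile of the autosomal bins in myoblasts (-1.08 to 2.11), the dotted line is their median, and *Ccnd1* in every condition and *Cdkn1a* in 2 of the 3 lie above the band.

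The 3 D-type cyclin genes occupied very different surroundings. The *Ccnd1* gene (ENSMUSG00000070348.5, chr7:144929931-144939925, minus strand, mm10) lies in the bin chr7:144500001-145000000, with 8 protein-coding start sites that include the fibroblast growth factor genes *Fgf3*, *Fgf4* and *Fgf15*. Its scaled PC1 was 2.39 in myoblasts, 2.29 in myotubes and 2.48 after AraC treatment, the highest of the 10 loci in every condition and at or above the 97.2 percentile of autosomal bins. With columns not centred, however, *Ccnd1* lay below *Cdkn1a* in myoblasts (2.01 against 2.24) and myotubes (1.95 against 2.08), and with odd partner bins alone it did so in myoblasts (2.27 against 2.45). *Ccnd2* (ENSMUSG00000000184.12, chr6:127125162-127152193, minus strand) lies in the bin chr6:127000001-127500000, which also holds 2 genes of the same growth factor family, *Fgf6* and *Fgf23*. Scaled PC1 there was -0.804 in myoblasts, -0.869 in myotubes and -0.913 after AraC treatment, the lowest of the 10 loci in every condition. *Ccnd3* (ENSMUSG00000034165.16, chr17:47505051-47599691, plus strand) lies in chr17:47500001-48000000, the most gene-dense of the 10 bins with 14 protein-coding start sites. Its scaled PC1 was 0.341 in myoblasts, 0.566 in myotubes and 0.289 after AraC treatment, between the other two D-type loci throughout. The span from *Ccnd2* to *Ccnd1*, over 3 SD, was far wider than any change of a D-type locus between conditions, of which the largest was -0.277, at *Ccnd3* from myotubes to AraC-treated myotubes.

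The loci of the later cyclins were ordered otherwise. *Ccne1* (ENSMUSG00000002068.16, chr7:38097984-38107534, minus strand) lies in chr7:38000001-38500000 with 5 protein-coding start sites and was in B, at -0.626 in myoblasts, -0.560 in myotubes and -0.717 after AraC treatment. *Ccna2* (ENSMUSG00000027715.9, chr3:36564865-36572150, minus strand) lies in chr3:36500001-37000000 with 6 start sites and was in A, at 0.852, 0.710 and 0.594 in the same order of conditions. *Ccnb1* (ENSMUSG00000041431.16, chr13:100778650-100786570, minus strand) lies in chr13:100500001-101000000 with 11 start sites, among them *Cdk7*, the kinase that activates cyclin-dependent kinases, and *Cenph*, a centromere protein gene. Scaled PC1 of the *Ccnb1* bin was 0.754 in myoblasts, 1.39 in myotubes and 1.66 after AraC treatment. *Cdk1* (ENSMUSG00000019942.13, chr10:69335146-69352938, minus strand) lies in chr10:69000001-69500000 with 4 start sites, at 1.03 in myoblasts, 1.11 in myotubes and 1.17 after AraC treatment. On this scale *Ccna2* was thus lower in each later condition and *Ccnb1* higher, while the largest change of *Ccne1* was -0.157, from myotubes to AraC-treated myotubes, and that of *Cdk1* was 0.136.

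Among the genes that halt the cycle, *Cdkn1a* (ENSMUSG00000023067.14, chr17:29090976-29100727, plus strand) lies in chr17:29000001-29500000 with 11 start sites, including the kinase gene *Pim1* and the splicing factor gene *Srsf3*. Its scaled PC1 of 2.32 in myoblasts, 2.16 in myotubes and 2.03 after AraC treatment was next below *Ccnd1* in every condition, with the exceptions given above. *Rb1* (ENSMUSG00000022105.6, chr14:73183673-73325822, minus strand) lies in chr14:73000001-73500000 with 5 start sites, at 1.37, 1.52 and 1.55. *Cdkn2c* (ENSMUSG00000028551.14, chr4:109660876-109667189, minus strand) lies in chr4:109500001-110000000 with 4 start sites, among them *Faf1* and *Dmrta2*. It was at -0.232 in myoblasts, 0.251 in myotubes and 0.0968 after AraC treatment, the locus nearest to 0 in each condition. All 10 gene bodies lay wholly within their bins (100%).

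The deposited matrices give no replicate spread against which to set the order of the loci. When PC1 was computed from odd-numbered or from even-numbered partner bins alone, scaled PC1 of a member differed by at most 0.264 in myoblasts, 0.130 in myotubes and 0.158 after AraC treatment. This difference comes from the same pooled reads and leaves out all variation between cultures, so it covers only part of the error, and a step larger than it is not thereby shown to stand. In myoblasts the order from highest to lowest was *Ccnd1*, *Cdkn1a*, *Rb1*, *Cdk1*, *Ccna2*, *Ccnb1*, *Ccnd3*, *Cdkn2c*, *Ccne1* and *Ccnd2*. The steps from *Ccnd1* to *Cdkn1a* (0.0644), from *Cdk1* to *Ccna2* (0.181), from *Ccna2* to *Ccnb1* (0.0982) and from *Ccne1* to *Ccnd2* (0.178) were smaller than that difference. In both kinds of myotubes the order differed only in that *Ccnb1* moved up from place 6, next to *Rb1*: it was at place 4 in myotubes and at place 3 in AraC-treated myotubes. The step from *Ccnb1* to *Rb1* in AraC-treated myotubes (0.116) and that from *Ccnd1* to *Cdkn1a* in myotubes (0.130, with more decimals just under the difference) were also smaller than the difference between odd and even partner bins of their condition.

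Grouped by role, the inhibitor and *Rb1* loci had the higher median. Median scaled PC1 of the 7 cyclin and Cdk1 loci was 0.754 in myoblasts, 0.710 in myotubes and 0.594 after AraC treatment. The median of the 3 inhibitor and *Rb1* loci, which is the value of *Rb1*, was 1.37, 1.52 and 1.55. Medians over all autosomal bins were -0.349, -0.411 and -0.430. The ranges of both groups overlapped widely in every condition, since *Ccnd1* lay above all inhibitor loci and *Cdkn2c* below 5 of the 7 cyclin and Cdk1 loci. With 3 loci in 1 group, and loci that are not replicates, the difference of medians is a description. Its size also depended on the setting: the cyclin and Cdk1 median minus the other was -0.811 in myotubes, and -0.313 when each bin was averaged with its neighbours, and in myoblasts it went from -0.620 to -0.285 with columns not centred.

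At the 8 loci other than *Ccnb1* and *Cdkn2c*, the largest change of scaled PC1 was -0.292, at *Cdkn1a* from myoblasts to AraC-treated myotubes (15.8 percentile). The change at *Ccnd3* from myotubes to AraC-treated myotubes (-0.277) lay at the 5.56 percentile, and so in the lower tail of autosomal bins for that pair. From myoblasts to myotubes, 6 loci were higher and 4 lower, and 48.7% of autosomal bins were higher. Only the *Ccnb1* locus was higher by over 0.5, against 3.83% of autosomal bins, and 0 loci were lower by over 0.5, against 2.96%. From myoblasts to AraC-treated myotubes, 5 loci were higher and 5 lower, against 46.7% of autosomal bins higher, and *Ccnb1* was again the only locus of the 10 beyond 0.5 (7.09% of autosomal bins were higher by that much and 5.86% lower). From myotubes to AraC-treated myotubes, 4 loci were higher, against 47.3% of autosomal bins, and 0 of the 10 passed 0.5 in either direction, against 2.18% higher and 0.381% lower. Both comparisons with myoblasts share the same myoblast matrix, so their values are not independent. Against these shares, a count of 1 in 10 loci is no result about the members as a group.

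**Figure D2:**
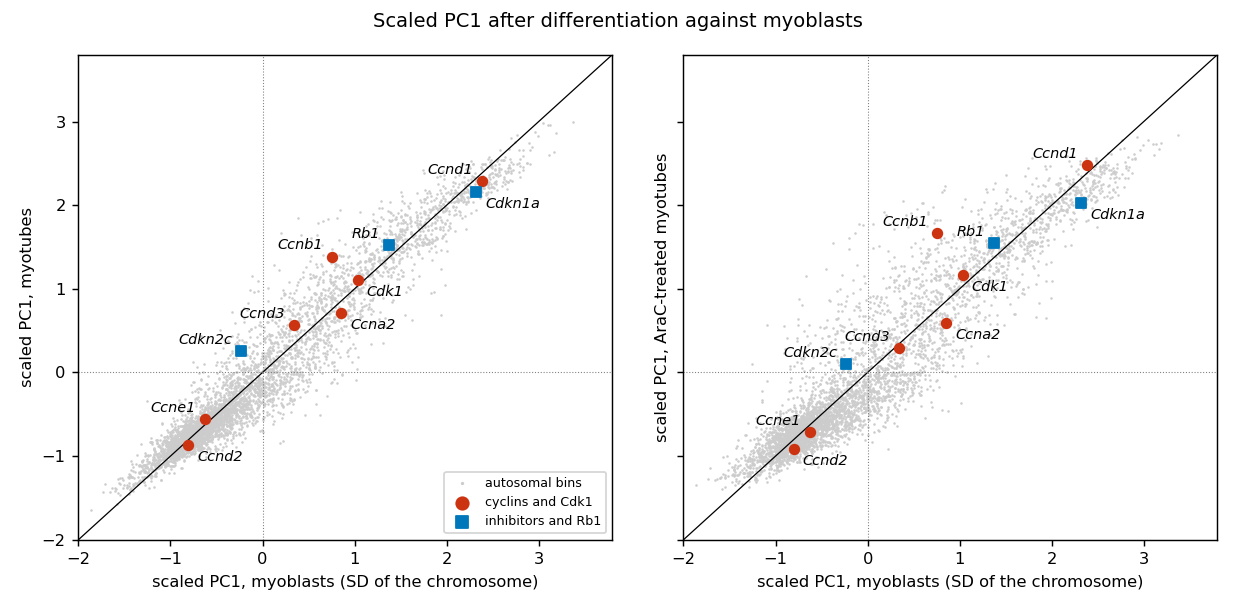
Scaled PC1 in myotubes (left) and AraC-treated myotubes (right) against scaled PC1 in myoblasts, both in SD of the chromosome, for the 4727 autosomal bins (grey), the 7 cyclin and Cdk1 loci (red circles) and the 3 inhibitor and *Rb1* loci (blue squares). The black line marks equal values, and of the 10 loci *Ccnb1* lies farthest above it in both panels, at 1.39 and 1.66 against 0.754 in myoblasts.

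The change at *Ccnb1* amounted to 0.632 from myoblasts to myotubes, the 98.1 percentile of autosomal bins, and 0.910 from myoblasts to AraC-treated myotubes, the 97.8 percentile. A further 0.278 separated AraC-treated myotubes from myotubes, at the 93.3 percentile. The locus moved within A, since it was above 0 in all conditions. Its neighbours lay higher after differentiation as well. The bin 0.5 Mb to the right went from 0.527 in myoblasts to 1.61 in myotubes and 1.86 after AraC treatment, the bin 1 Mb to the right from 1.06 to 1.91 and 2.07, and the bin 0.5 Mb to the left from 0.303 to 0.512 and 1.11. The bin 1.5 Mb to the left already stood at 2.02 in myoblasts and was at 2.16 and 2.14 in myotubes without and with AraC. In myoblasts the locus thus sat in a broad dip of PC1, which was narrower in myotubes and shallower in AraC-treated myotubes.

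On chr 13 the PC1 of *Ccnb1* tracked gene density weakly, with a correlation across bins of 0.122 in myoblasts, 0.0569 in myotubes and 0.0535 after AraC treatment between PC1 and the number of protein-coding start sites. The assignment to A and B was therefore set against coefficients with bins of other chromosomes, which that step does not use. This is no independent check, since A and B bins elsewhere were called by PC1. All coefficients of a bin also rest on the same interaction profile. A coefficient compares the interaction profiles of a pair of bins and is not a contact frequency. The mean coefficient of the *Ccnb1* bin with A bins of other chromosomes was 0.0448 in myoblasts, 0.108 in myotubes and 0.117 after AraC treatment, and with B bins -0.0153, -0.0701 and -0.0744. Divided by the SD of coefficients over pairs of autosomal bins on different chromosomes, the values with A bins were 1.00, 1.21 and 1.60. *Ccnb1* was thus on the A side in all conditions on this measure too, and highest in AraC-treated myotubes.

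The *Cdkn2c* locus was the only member that changed compartment, from B in myoblasts to A in myotubes and AraC-treated myotubes. Among autosomal bins, 7.32% changed compartment from myoblasts to myotubes and 2.77% did so from B to A, and 10.2% and 3.72% did from myoblasts to AraC-treated myotubes. No member changed between myotubes and AraC-treated myotubes (0 of 10, against 5.12% of autosomal bins, of which 2.05% from B to A and 3.07% from A to B). The change of scaled PC1 at *Cdkn2c* was 0.483 from myoblasts to myotubes (95.9 percentile) and 0.328 from myoblasts to AraC-treated myotubes (88.0 percentile), both short of 0.5. The change of sign thus came at a bin whose value was close to 0 throughout. With bins left out that were within the lowest 20% of absolute PC1 of their chromosome, 0 members changed compartment in either comparison with myoblasts.

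The *Cdkn2c* bin lies on a border between compartments. The bin 0.5 Mb to its left was clearly in A, at 0.871 in myoblasts, 1.29 in myotubes and 1.18 after AraC treatment. The bin 0.5 Mb to its right was clearly in B, at -1.07, -0.950 and -0.957. In myoblasts the bin formed the left end of a B stretch of 6.5 Mb, and in both kinds of myotubes the right end of an A stretch of 5 Mb (bins without data were passed over in these lengths). Coefficients with other chromosomes were small as well. Its mean coefficient with A bins elsewhere was -0.0120 in myoblasts, 0.00576 in myotubes and -0.00218 after AraC treatment, against 0.0108, -0.00994 and -0.00262 with B bins, so that in AraC-treated myotubes both means were almost equal.

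A comparable border ran next to *Ccnd3*, whose start site is 5050 bp from the left edge of its bin. The bin to the left was at 1.45 in myoblasts, 1.60 in myotubes and 1.27 after AraC treatment, and the bin to the right at -1.16, -1.03 and -1.06. *Ccnd3* was thus the last A bin of a stretch of 4.5 Mb in myoblasts and myotubes and of 4 Mb in AraC-treated myotubes. Where within a bin such a border lies cannot be seen at 500 kb.

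**Figure D3:**
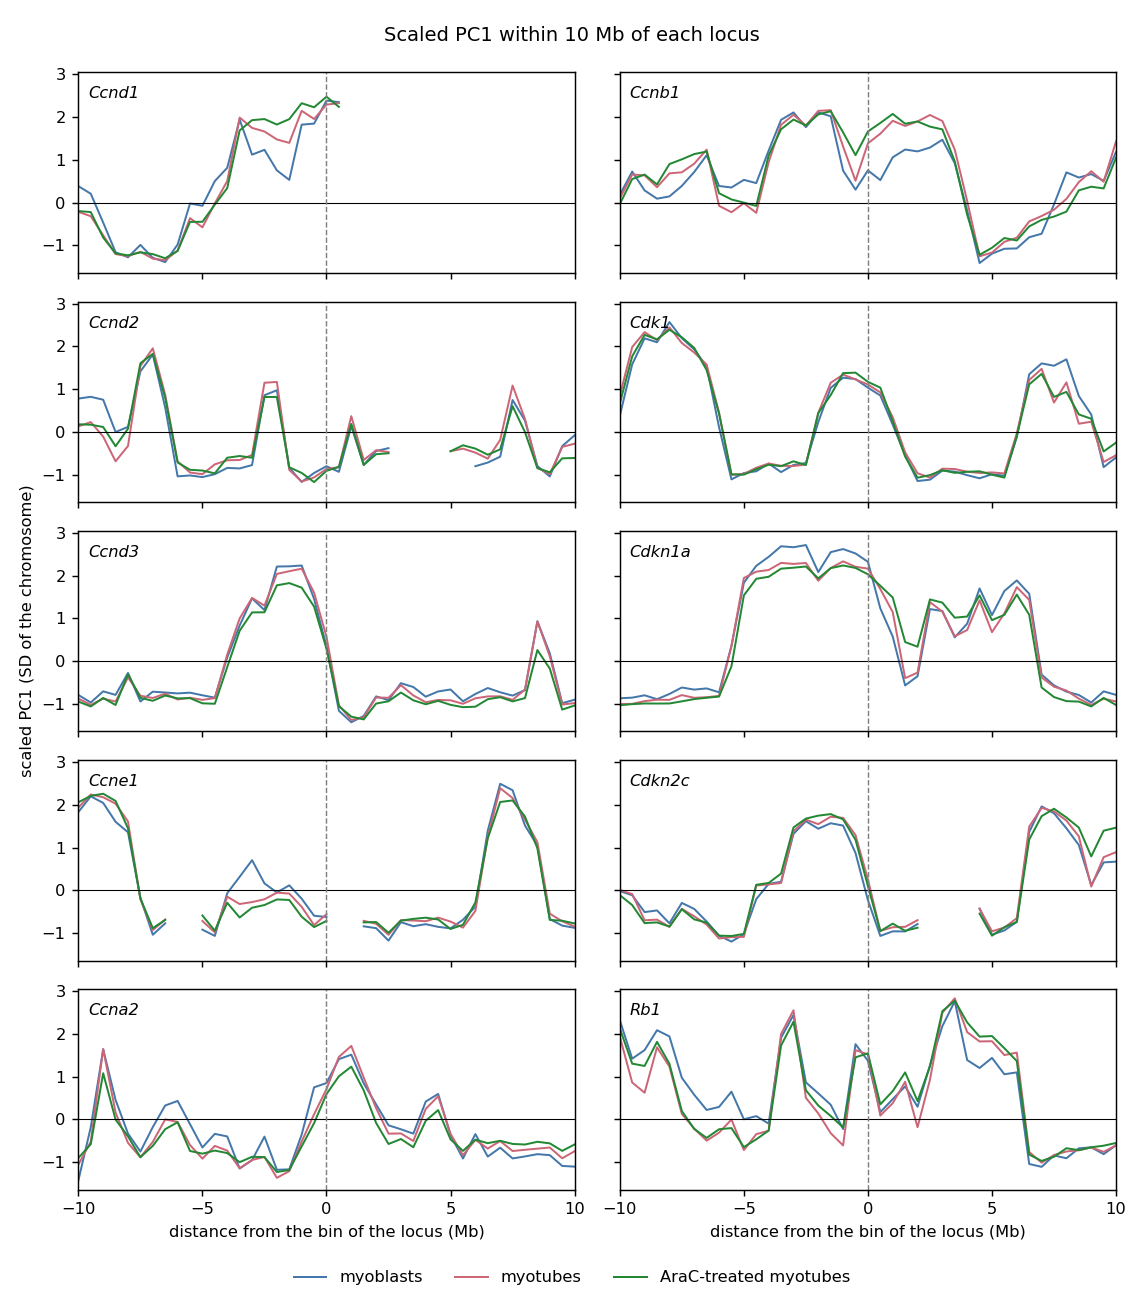
Scaled PC1 (vertical axis, in SD of the chromosome) of bins within 10 Mb of each of the 10 loci, against the distance from the bin of the locus in Mb, in myoblasts (blue), myotubes (red) and AraC-treated myotubes (green), with gaps where a bin had no data or the chromosome ends. *Cdkn2c* and *Ccnd3* sit on steep borders, *Ccnb1* in a dip that is narrower in myotubes and shallower after AraC treatment, *Cdkn1a* at the right of a broad stretch of high PC1, and *Ccnd1* in a high stretch near the end of its chromosome.

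Other loci kept their own state while bins close by did not. These bins were picked out after their values had been seen. The bin 0.5 Mb to the left of *Ccna2* went from 0.752 in myoblasts to 0.122 in myotubes and -0.0860 after AraC treatment, and the A stretch around *Ccna2* measured 3 Mb in myoblasts and myotubes and 2 Mb in AraC-treated myotubes. To the left of *Ccne1*, the bin at 3 Mb was in A in myoblasts, at 0.703, and in B at -0.277 in myotubes and -0.409 after AraC treatment. The B stretch that holds *Ccne1* was 7.5 Mb long in myoblasts and 14 Mb in myotubes with and without AraC. In myoblasts it ended at the bin 1.5 Mb to the left of *Ccne1*, which was only just in A (0.115, against -0.0774 in myotubes and -0.227 after AraC treatment), so these lengths rest on a bin near 0. To the right of *Cdkn1a*, the bins at 1.5 Mb and 2 Mb were in B in myoblasts (-0.571 and -0.356) and myotubes (-0.400 and -0.271) and in A in AraC-treated myotubes (0.445 and 0.335), and the A run that holds *Cdkn1a* measured 7 Mb in myoblasts and myotubes and 12 Mb in AraC-treated myotubes. The bin 1.5 Mb to the left of *Ccnd1*, likewise picked out for its change, holds the start site of another inhibitor gene, *Cdkn1c* (p57), and was at 0.532 in myoblasts, 1.40 in myotubes and 1.95 after AraC treatment, next to a *Ccnd1* bin that changed by less than 0.2.

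Smaller changes of the remaining loci depended on the scale. Relative to myoblasts, scaled PC1 of *Ccna2* differed by -0.142 in myotubes and -0.258 after AraC treatment, and that of *Cdkn1a* by -0.159 and -0.292. On unscaled PC1 both loci were higher in myotubes and AraC-treated myotubes than in myoblasts, as was *Ccnd1*, whose scaled change was -0.0934 in myotubes. On that scale the median change of bins that were in A in myoblasts was 0.798 in myotubes and 0.528 after AraC treatment, and that of all autosomal bins was -0.312 and -0.210. Among 9 other ways of computing the change, the direction of *Ccnb1* and of *Cdkn2c* was the same in all 9 for every pair of conditions. Each of the other 8 loci changed direction in at least 1 of the 9 in at least 1 pair of conditions.

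The interaction profile of a locus, that is its coefficients with all other bins of its chromosome, was also compared directly between conditions by Pearson correlation across those bins, which are not independent. Between myoblasts and myotubes *r* was 0.973 for *Cdkn1a*, 0.959 for *Ccnd1*, 0.907 for *Cdk1*, 0.901 for *Ccne1*, 0.896 for *Rb1*, 0.876 for *Ccnb1* and 0.860 for *Ccnd2*, around or above the autosomal median of 0.877. Lower values were found at *Ccnd3* (0.777) and *Ccna2* (0.753), and the lowest at *Cdkn2c* (0.0695, the 4.02 percentile). Between myoblasts and AraC-treated myotubes *r* ran from 0.322 at *Cdkn2c* through 0.608 at *Ccna2* and 0.709 at *Ccnd3* to 0.942 at *Ccnd1*, with an autosomal median of 0.839. Between myotubes and AraC-treated myotubes it was 0.560 at *Cdkn2c*, 0.715 at *Ccna2*, 0.889 at *Ccnd3* and 0.924 to 0.988 at the other 7 loci, with an autosomal median of 0.947. For the bins themselves, *Cdkn2c*, *Ccna2* and *Ccnd3* were the 3 lowest in every pair of conditions. In no pair was *r* below 0 at a member (0 of 10), against 3.28%, 5.8% and 1.16% of autosomal bins in the order given.

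Profile correlation was generally low for bins close to 0 on PC1. The 1444 autosomal bins within 0.5 of 0 in myoblasts had a median *r* of 0.589 between myoblasts and myotubes, and the other 3283 bins had 0.908. *Cdkn2c* and *Ccnd3* were the members within 0.5 of 0 in myoblasts. *Ccna2* was not, at 0.852, and lay below the median of bins beyond 0.5 in all 3 pairs (0.908, 0.875 and 0.958). Averaged with both neighbouring bins, *r* at *Cdkn2c* was 0.649, 0.716 and 0.834 in the order of pairs given above, *r* at *Ccna2* was 0.482, 0.353 and 0.708, and *r* at *Rb1* was 0.680, 0.605 and 0.695, below *Cdkn2c* in both pairs with AraC-treated myotubes. The low *r* of *Cdkn2c* was thus a value of its single bin. At *Ccnb1*, which had the largest change of PC1, *r* was 0.876, 0.832 and 0.963 in the order of pairs given above, against autosomal medians of 0.877, 0.839 and 0.947. *Ccnb1* was beyond 0.5 of 0 in myoblasts. Its *r* lay below the median of such bins in both pairs with myoblasts (0.908 and 0.875), and slightly above it between both kinds of myotubes (0.958). The larger PC1 of *Ccnb1* thus went with a profile correlation near the median of all autosomal bins.

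**Figure D4:**
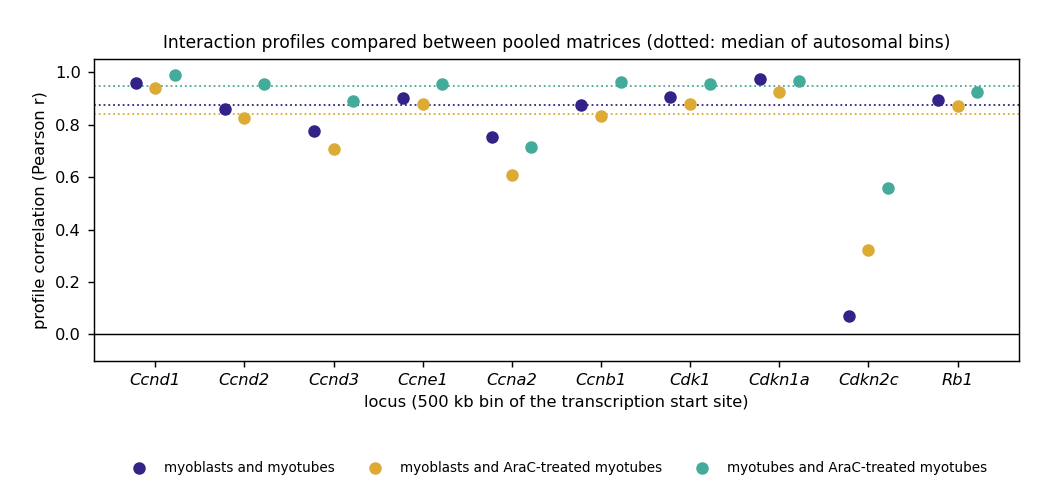
Pearson correlation (vertical axis, no unit) of the interaction profile of each of the 10 loci, for myoblasts against myotubes (dark blue), myoblasts against AraC-treated myotubes (yellow), and both kinds of myotubes (green), with the median of the 4727 autosomal bins as a dotted line of the same colour. *Cdkn2c* lies lowest in each pair, at 0.0695, 0.322 and 0.560, followed by *Ccna2* and *Ccnd3*.

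The similarity of interaction profiles among the 10 loci followed their compartments. Of the 45 pairs of loci, 43 are on different chromosomes. The highest coefficient between chromosomes joined *Ccnd1* and *Cdkn1a*, at 0.236 in myoblasts, 0.424 in myotubes and 0.396 after AraC treatment, which is 5.29, 4.76 and 5.41 SD of the pairs of autosomal bins on different chromosomes. These are a driver and an inhibitor of the cycle, and the loci with the highest PC1. *Ccnd1* and *Ccnb1* followed, at 0.130, 0.257 and 0.260, and *Ccnb1* and *Cdkn1a*, at 0.112, 0.244 and 0.223. *Cdkn1a* and *Rb1* had 0.116, 0.182 and 0.149. The lowest coefficient in myoblasts and myotubes was that of *Ccnd2* and *Cdkn1a*, at -0.0922 and -0.207, with -0.146 in AraC-treated myotubes. There the pair *Ccnd1* and *Ccnd2* was slightly lower, at -0.147. The B loci *Ccnd2* and *Ccne1* had a coefficient above 0 with each other, at 0.0139, 0.0701 and 0.0522. *Ccnb1* and *Cdk1*, whose products form 1 kinase, had 0.0398, 0.0887 and 0.0873.

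The mean coefficient over the 43 pairs was 0.0208 in myoblasts, 0.0347 in myotubes and 0.0247 after AraC treatment. Over all pairs of autosomal bins on different chromosomes the mean was 0.00526, 0.00743 and 0.00306, and over those with both bins in A it was 0.0490, 0.0888 and 0.0824. Pairs within the cyclin and Cdk1 loci averaged 0.0116, 0.0212 and 0.00753 (20 pairs), and pairs of a cyclin or Cdk1 locus with an inhibitor or *Rb1* locus 0.0295, 0.0442 and 0.0381 (20 pairs). The 3 pairs within the inhibitor and *Rb1* loci averaged 0.0239, 0.0615 and 0.0500. Every mean of the members was below that of pairs of A bins. The pairs of members include loci in B, however, such as *Ccnd2* and *Ccne1*, so these sets of pairs are not alike. A mean over pairs of members in A alone was not computed, and how such pairs stand beside A bins in general is left undecided. Pairs across both groups of loci had a higher mean than pairs within the cyclin and Cdk1 loci, but not a higher median in myoblasts (0.0116 against 0.0116) or myotubes (0.0128 against 0.0212), and the former included the pair of *Ccnd1* and *Cdkn1a*. In AraC-treated myotubes their median was 0.0241 against 0.0145. The SD over all such pairs of autosomal bins was 0.0446 in myoblasts, 0.0890 in myotubes and 0.0732 after AraC treatment, so the spread of coefficients also differed between conditions.

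**Figure D5:**
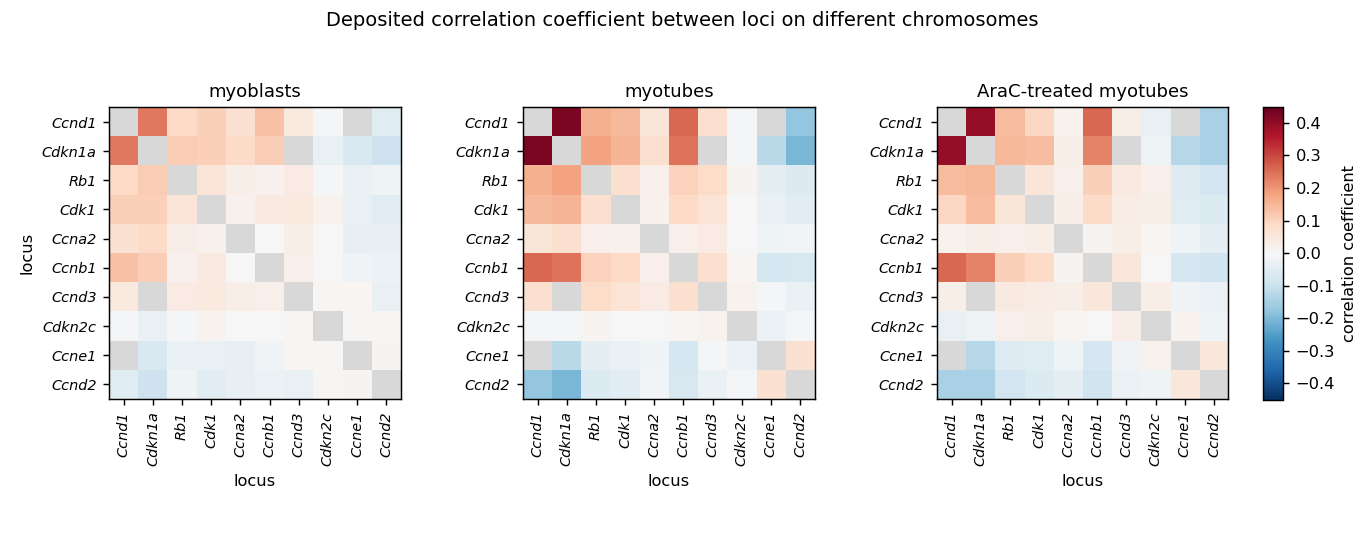
Deposited correlation coefficients (colour, no unit) between the bins of the 10 loci in myoblasts, myotubes and AraC-treated myotubes, with loci ordered on both axes by scaled PC1 in myoblasts and pairs on 1 chromosome in grey. The loci with high PC1 form a red corner led by *Ccnd1* and *Cdkn1a* (0.236, 0.424 and 0.396), and *Ccne1* and *Ccnd2* have coefficients below 0 with them.

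For each locus the bin on another chromosome with the highest mean coefficient over the 3 conditions was found. For *Ccnd1* it was chr2:31000001-31500000 (5 protein-coding genes, from *Fnbp1* to *Ass1*), with 0.323 in myoblasts, 0.546 in myotubes and 0.446 after AraC treatment. The partner of *Cdkn1a* was chr15:99500001-100000000 (14 genes, from *Faim2* to *Larp4*), with 0.324, 0.585 and 0.481. The partner of *Ccnb1* was chr17:28000001-28500000 (9 genes, from *Tcp11* to *Tulp1*), with 0.129, 0.277 and 0.269. That bin lies 1 Mb to the left of the *Cdkn1a* bin. The partner of *Ccna2*, chr18:34500001-35000000 (16 genes, from *Fam13b* to *Hspa9*), had 0.110, 0.0791 and 0.0654. It holds *Cdc25c*, the gene of a phosphatase that activates Cdk1, which was picked out after the values were seen. For *Rb1* the partner was chr19:46000001-46500000 (15 genes, from *Hps6* to *Sufu*), with a mean coefficient of 0.173, for *Cdk1* chr16:92000001-92500000 (9 genes, from *Mrps6* to *Clic6*), with 0.163, and for *Ccnd3* chr19:3500001-4000000 (13 genes, from *Ppp6r3* to *Tbx10*), with 0.122. All 7 of these partners had a scaled PC1 above 1.9 in myoblasts. The B loci had partners deep in B, *Ccnd2* with chr2:169500001-170000000 (*Gm11011* and *Tshz2*, mean 0.140, scaled PC1 -1.65 in myoblasts) and *Ccne1* with chr13:58500001-59000000 (*Slc28a3* and *Ntrk2*, mean 0.0877, scaled PC1 -1.48). *Cdkn2c* had no strong partner, and its highest mean was 0.0453 with chr16:86000001-86500000, a bin with 0 protein-coding start sites.

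The base composition of the bins set some loci apart from their compartment. The content of G and C was 49.6% at *Ccnd1*, 49.6% at *Ccnd3* and 49.7% at *Cdkn1a*, all above the 97 percentile of autosomal bins (median 41.7%). It was 46.2% at *Ccnd2* and 44.3% at *Ccne1*, at the 86.1 and 73.1 percentile, although both loci were in B. Of the 655 autosomal bins with at least the content of *Ccnd2*, 20.9% were in B in myoblasts, and of the 1273 with at least that of *Ccne1*, 31.3% were. *Cdkn2c* had 39.3%, the lowest of the members. Over the 4727 autosomal bins scaled PC1 correlated with this content at 0.537 in myoblasts, 0.552 in myotubes and 0.560 after AraC treatment. The number of HindIII sites, at which the chromatin was cut for Hi-C, ran from 112 at *Ccnd3* to 183 at *Cdkn2c* (median 162), and correlated with scaled PC1 at -0.385, -0.410 and -0.412. Base composition and cutting sites are the same in all conditions, and their part in the levels was not tested.

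*Ccnb1* and *Cdk1* code for the parts of 1 kinase, and their loci differed in the change of PC1 (0.632 against 0.0733 from myoblasts to myotubes). Their promoters are shown here because genes of this kind are known to share CCAAT boxes, bound by NF-Y, and the element TTTGAA, known as the cell cycle genes homology region, which also occurs as TTTAAA. A promoter was in the table used for 6 of the 10 members (*Ccnd3*, *Ccne1*, *Ccnb1*, *Cdk1*, *Cdkn1a* and *Cdkn2c*). The stretches below are from RefSeq on GRCm38.p6, 5′ to 3′ on the minus strand, upstream of the start sites of both RefSeq and GENCODE, chr13:100786571-100786736 for *Ccnb1* (166 bases) and chr10:69352939-69353162 for *Cdk1* (224 bases). Capitals mark matches to these motifs on either strand.
Ccnb1: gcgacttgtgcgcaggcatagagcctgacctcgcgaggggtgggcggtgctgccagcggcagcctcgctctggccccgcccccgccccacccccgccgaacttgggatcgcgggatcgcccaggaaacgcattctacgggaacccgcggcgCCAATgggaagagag
Cdk1: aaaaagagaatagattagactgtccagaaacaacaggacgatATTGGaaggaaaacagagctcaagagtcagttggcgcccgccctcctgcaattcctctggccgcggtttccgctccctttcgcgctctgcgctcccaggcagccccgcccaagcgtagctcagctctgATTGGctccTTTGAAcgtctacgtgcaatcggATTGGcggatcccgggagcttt
The stretch of *Ccnb1* held 1 CCAAT match, and that of *Cdk1* held 3 such matches, all on the opposite strand and so printed as ATTGG, beside 1 match of the form TTTGAA. In the 250 bases before the RefSeq start, part of which lies past the GENCODE start and is not shown, *Ccnb1* had 2 matches of the CCAAT box and 1 of the form TTTAAA. *Cdk1* had 3 of the CCAAT box and 2 of the form TTTGAA. Among 32619 RefSeq promoter windows of that length, 34.0% held a CCAAT box on either strand, 15.7% the form TTTGAA and 11.9% the form TTTAAA, and 8.81% held a CCAAT box with either of the other motifs. The motifs do not overlap in the stretches shown, and a match of letters is not a bound site. The Hi-C values above belong to whole bins of 500 kb and cannot be assigned to a promoter.

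A wider list of 32 other cell cycle genes in 31 bins was compared in the same way. In myoblasts 27 of the 32 genes were in A, in myotubes 23 and in AraC-treated myotubes 24, beside 38.3%, 36.5% and 35.5% of autosomal bins. Of the 30 bins without a member, 25, 22 and 23 were in A. These shares are not matched for gene density either. Compartments differed at 4 of the 32 between myoblasts and myotubes, at 5 when AraC-treated myotubes were set against myoblasts, and at 1 from myotubes to AraC-treated myotubes, beside 7.32%, 10.2% and 5.12% of autosomal bins. *Ccne2*, the second cyclin E gene, was in A in myoblasts (0.133) and in B in myotubes (-0.121) and AraC-treated myotubes (-0.171). The same held for *E2f5* (0.0581, -0.0308 and -0.207) and for the inhibitor genes *Cdkn2a* and *Cdkn2b*, which share 1 bin (0.196, -0.0980 and -0.275). *Cdc25a*, the gene of a phosphatase that activates the kinases of G1 and S phase, went from -0.623 in myoblasts to -0.237 in myotubes and 0.0307 after AraC treatment, and so from B to A. *Cdkn2a*, *Cdkn2b* and *Cdkn2c* belong to the INK4 family of inhibitors, and the bin of *Cdkn2c* thus moved from B to A while that of *Cdkn2a* and *Cdkn2b* moved from A to B, with scaled PC1 close to 0 at both bins throughout. *Cdkn2d*, the other gene of that family, stayed in A, at 1.74 in myoblasts, 1.69 in myotubes and 1.02 after AraC treatment. From myoblasts to myotubes 5 of the 32 genes were higher by over 0.5 (one of them *Cdk7*, in the bin of *Ccnb1*) and 0 lower, beside 3.83% and 2.96% of autosomal bins. From myoblasts to AraC-treated myotubes 5 were higher and 5 lower, beside 7.09% and 5.86%. In 0 of the 32 was profile correlation below 0 in any pair of conditions, beside 3.28%, 5.8% and 1.16% of autosomal bins.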

How the data were processed

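Hi-C libraries of myoblasts, myotubes and AraC-treated myotubes were cut with HindIII. According to the study's methods and the submitters' notes, reads were mapped with Bowtie in HiCUP, and unique di-tags of both replicates were pooled for normalization in HOMER. For each condition the authors deposited a symmetric matrix of scores, which are correlation coefficients between the normalized interaction profiles of 500 kb bins, from -1 to 1. The values were used as deposited. The number of di-tags behind a coefficient is not given by the files, and columns of unmapped samples numbered 0. The study's pooled totals, highest for myotubes and lowest for AraC-treated myotubes, were not used here. Pooling removed the spread between replicates, so no test was run and values were set beside those of 4727 autosomal bins.

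PC1 was computed per chromosome and condition from the within-chromosome block (columns centred), with its sign set by the number of protein-coding start sites per bin, and divided by its SD over the chromosome. A change beyond 0.5 was counted. Profile correlation was Pearson *r* over the other bins of the chromosome, and counted where below 0. Start sites came from GENCODE vM21 on GRCm38, the assembly of mm10. The notes name mm10 and, beside it, the human build GRCh38. The bins of the files fitted the mm10 lengths on 14 of 20 chromosomes, and on the other 6 only the last partial bin was missing. Python 3.11.15, NumPy 2.4.6, SciPy 1.17.1, pandas 2.3.3 and Matplotlib 3.10.9 were used. The steps were tested on simulated matrices.

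Members and lists were chosen with earlier results of these data known. Named genes are the 10 members, genes of their bins and of the strongest partner bin on another chromosome, and those of the wider list that changed compartment. *Cdkn1c*, *Cdkn2d* and *Cdc25c* were named after their values had been seen. Alternatives were a score from other chromosomes in place of PC1, uncentred columns, odd or even partner bins, averages with neighbouring bins, other scalings, thresholds and correlations, and, added after the data were seen, another diagonal. That score is the mean coefficient with A bins minus the mean with B bins of other chromosomes. Its A and B bins were those called by PC1, so it is not independent of PC1. RNA-seq was not analysed here.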

Additional observations from a re-analysis of the deposited data

How the results depend on the processing

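No paired analysis was possible because the replicates were pooled in the deposited matrices and the columns carry no replicate number. For the same reason no replicate could be left out, and what depth limits was not assessed. Of 261 alternative values of the counts, medians and means, 246 were classed as moved by less than the SD over the 10 members (counts: by under 1.5 times), as were 666 of 690 for single loci. Some alternatives are in other units. By percentile rank the cyclin and Cdk1 median minus the other was -11.9 in myoblasts, against -0.620, and was classed so too. For such settings the class does not describe the raw move. The SD over the members is a wide margin beside most changes: the median change of the cyclin and Cdk1 loci from myoblasts to myotubes, 0.0651, was -0.0619 with uncentred columns. Members higher by over 0.5 from myoblasts to myotubes numbered 2 with the score from other chromosomes, 0 with uncentred columns (*Ccnb1* was then higher by 0.337) and 2 at a threshold of 0.25. At 0.25, 2 were higher and 2 lower from myoblasts to AraC-treated myotubes, and 1 was higher and 1 lower from myotubes to AraC-treated myotubes. With uncentred columns *Cdkn2c* was at -0.0919 in AraC-treated myotubes, so that 0 members changed compartment from myoblasts to AraC-treated myotubes and 1 from myotubes to AraC-treated myotubes. With bins under the 20th percentile of absolute PC1 left out, 0 changed compartment from myoblasts to myotubes and 0 from myoblasts to AraC-treated myotubes. Profile correlation of *Cdkn2c* between myoblasts and myotubes was -0.0150 by Spearman rank correlation and -0.0497 with bins of the whole genome included, so 1 member was then below 0, and 1 was below a threshold of 0.2. Within the inhibitor and *Rb1* loci in myoblasts, the median coefficient was -0.00995, against a mean above 0. The causes were not tested.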
